A study of Mus musculus with 12 samples.

Results

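The 6 genes described here are the CSF1 receptor gene Csf1r, the genes of its ligands, Csf1 and Il34, and the neighbouring GM-CSF system, with the receptor subunits Csf2ra and Csf2rb and the ligand Csf2. They were taken by symbol from a table of 55401 genes measured by RNA sequencing in 12 tumour libraries, and each symbol gave 1 entry. All 6 reached at least 1 FPKM (fragments scaled by transcript length and by the mapped fragments of the library) in at least 3 libraries and entered the tests, which covered 15813 genes. The libraries came from bulk orthotopic oral tumours of C57BL/6 mice that had received MTC-Q1 mouse oral cancer cells per the labels. The sample titles read Q1-2, the name the methods of the study give to a luciferase subline of MTC-Q1. There were 3 libraries for each of 4 treatments, given from a tumour size of 100 mm3 on. The treatments were control IgG (Ctrl-IgG), an antibody against CSF1R (aCSF1R), interleukin-10 fused to an Fc part (IL-10-Fc) and BF10, the IL10/CSF1R fusion protein, which joins interleukin-10 to an antibody against CSF1R. The labels count 4 doses in one place and 6 in another, and give neither sex nor age. The labels name 1 cell line for all tumours, and nothing in them says that the libraries of a group came from separate mice, so the p-values measure the spread between these libraries, which may be technical. In bulk tumour RNA, fewer cells of a type and less RNA per cell cannot be told apart.

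CSF1R is a receptor tyrosine kinase of monocytes, macrophages and osteoclasts, and its signal keeps these cells alive and dividing. CSF1 and IL-34 are unrelated in sequence but bind the same receptor. CSF1 is made by many stromal and tumour cells, and IL-34 chiefly by keratinocytes and neurons. GM-CSF, the product of Csf2, acts through a specific alpha subunit (Csf2ra) and a beta subunit (Csf2rb) that is shared with the interleukin-3 and interleukin-5 receptors. Macrophages are abundant in many tumours, and their dependence on CSF1R has made the receptor an antibody target.

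The 250 bases before the transcription start were at hand in the RefSeq promoter table (GRCm38.p6) for 3 of the 6 genes, and those are shown. All 3 genes are on the minus strand and are printed 5′ to 3′. Capitals mark matches on either strand to 5 motifs. The GC box was searched as GGGCGG, which reads CCGCCC on the other strand. The AP-1 site was searched as TGACTCA and the TATA box as TATAAA. A site of PU.1 was searched by the core letters GAGGAAG, and the cyclic AMP response element as TGACGTCA. Csf1 is at chr3:107760470-107760719, Csf2 at chr11:54249900-54250149 and Csf2ra at chr19:61228419-61228668.
Csf1: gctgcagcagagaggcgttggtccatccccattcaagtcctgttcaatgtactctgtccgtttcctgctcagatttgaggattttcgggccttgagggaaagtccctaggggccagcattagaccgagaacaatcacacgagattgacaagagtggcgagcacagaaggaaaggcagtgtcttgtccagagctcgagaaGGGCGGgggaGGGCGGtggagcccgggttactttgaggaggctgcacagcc
Csf2: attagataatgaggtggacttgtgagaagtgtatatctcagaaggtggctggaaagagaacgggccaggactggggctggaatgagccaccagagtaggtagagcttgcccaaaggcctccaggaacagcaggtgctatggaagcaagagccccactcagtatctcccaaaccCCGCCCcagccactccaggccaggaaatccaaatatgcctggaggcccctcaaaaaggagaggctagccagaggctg
Csf2ra: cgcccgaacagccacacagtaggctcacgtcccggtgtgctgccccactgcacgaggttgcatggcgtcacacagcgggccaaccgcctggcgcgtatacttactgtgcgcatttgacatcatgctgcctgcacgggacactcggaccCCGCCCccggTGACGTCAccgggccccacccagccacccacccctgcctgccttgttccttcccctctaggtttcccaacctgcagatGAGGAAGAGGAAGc
Csf1 held 2 copies of GGGCGG near its start, and Csf2 and Csf2ra held 1 each on the opposite strand. This motif stood in 32.7% of the 32851 promoters of the same length. Csf2ra also held 1 cyclic AMP response element (in 1.55% of promoters) and 2 copies of the PU.1 core (10.6%), which overlap by 1 base at the end of the window. The AP-1 motif (4.46%) and the TATA box (12.4%) matched none of the 3. The RefSeq start of Csf2 lies 232 bases upstream of the 5′ end in the annotation used for positions, so its window lies farther from the annotated gene than the others. A match is a description of letters and not a bound site.

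Features of the libraries touch every comparison that follows. Xist did not exceed 0.04 FPKM in any Ctrl-IgG or aCSF1R tumour, and stood at 17.1 to 30.7 in those that had IL-10-Fc or BF10. The class II gene H2-Ea, which the haplotype of C57BL/6 does not transcribe, was at most 0.27 FPKM in the former and at least 552.8 in the latter, which goes against the labelled strain. The simple epithelial keratin gene Krt18 was at most 0.09 FPKM in the former and 293.6 to 614.0 in the latter, and the sum of 6 simple epithelial markers was 0.86 to 12.1 against 525.4 to 1380, so the tumours of these sides also differ in an epithelial marker although 1 line is labelled. Treatment and this difference cannot be told apart when IL-10-Fc or BF10 is compared with Ctrl-IgG or aCSF1R, whereas aCSF1R against Ctrl-IgG and BF10 against IL-10-Fc are free of it except for Y-linked transcripts in BF10 replicate 3. BF10 replicate 1, Ctrl-IgG replicate 2 and IL-10-Fc replicates 1 and 2 had FPKM sums of 819001 to 976950 and mitochondrial shares of 6.57% to 9.04%, against 637596 to 701275 and 2.99% to 3.61% in the other 8. They are called the high-sum libraries here. Relative depth ranged 1.51-fold, and the absolute depth is unknown. The summed keratinocyte list was at 1535 to 2086 FPKM in Ctrl-IgG replicate 3 and aCSF1R replicates 1 and 2 and at 8.42 to 39.4 in the other 9. Skeletal muscle markers moved with it, at 1107, 714.8 and 684.4 FPKM in these 3 and 22.7 to 143.4 in the other 9.

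In the GRCm38 annotation Csf1r (ENSMUSG00000024621) lies on the plus strand of chromosome 18, from 61100598 to 61132149, with 5774 exon bases. Csf1 (ENSMUSG00000014599) lies on the minus strand of chromosome 3, from 107741048 to 107760469, with 5281 exon bases. Il34 (ENSMUSG00000031750) lies on the minus strand of chromosome 8, from 110741829 to 110805924, and is shorter, at 1959 exon bases. Of the GM-CSF genes, Csf2ra (ENSMUSG00000059326) is at 61223957 to 61228429 of chromosome 19, minus strand, Csf2rb (ENSMUSG00000071713) at 78325752 to 78353847 of chromosome 15, plus strand, and Csf2 (ENSMUSG00000018916) at 54247271 to 54249667 of chromosome 11, minus strand. Csf2rb is the longest of the 6, with 7277 exon bases, Csf2ra has 2871 and Csf2 the fewest, 800. Csf2rb has a near copy beside it, Csf2rb2 (ENSMUSG00000071714, 78282507 to 78305721, minus strand), which encodes a beta subunit used by interleukin-3 alone. The transcripts of Csf2rb shared 518 windows of 75 bases with those of Csf2rb2, 7.15% of the windows of Csf2rb and 10.6% of those of Csf2rb2, so the split of fragments between these genes is uncertain.

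Csf1r had its lowest mean and its narrowest spread in the tumours given the CSF1R antibody, and its widest spread in those given BF10. In Ctrl-IgG replicates 1 to 3 it was 8.56, 7.33 and 22.1 FPKM (mean 12.7 ± 8.20, SD, n = 3), and in aCSF1R 6.91, 8.14 and 7.42 FPKM (7.49 ± 0.618). With IL-10-Fc it was 14.1, 11.7 and 48.55 FPKM (24.8 ± 20.6), and under BF10 13.1, 79.1 and 67.0 FPKM (53.0 ± 35.1). The aCSF1R libraries lay within or below the range of Ctrl-IgG and below every BF10 and IL-10-Fc library, while Ctrl-IgG overlapped IL-10-Fc and BF10. Between BF10 and aCSF1R 55.7% of all tested genes did not overlap. The order of the means was aCSF1R, Ctrl-IgG, IL-10-Fc and BF10, and no neighbours in that order were separated. Over the 4 groups limma's moderated F test did not call Csf1r (adjusted p 0.0799), at a threshold that 34.1% of tested genes passed.

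The ligand gene Csf1 was at 36.5, 12.7 and 26.7 FPKM in Ctrl-IgG (25.3 ± 11.97) and 37.15, 43.1 and 32.45 in aCSF1R (37.6 ± 5.35). With IL-10-Fc it was 12.8, 12.3 and 85.9 FPKM (37.0 ± 42.4), and under BF10 24.2, 79.2 and 73.3 (58.9 ± 30.2). Every pair of groups overlapped and the F test gave an adjusted p of 0.452. Il34, the other ligand gene, had less spread. It was 9.19, 3.71 and 9.04 FPKM in Ctrl-IgG (7.31 ± 3.12) and 8.18, 11.4 and 8.79 in aCSF1R (9.45 ± 1.70). With IL-10-Fc it was 12.8, 13.6 and 29.0 FPKM (18.5 ± 9.14), and under BF10 15.7, 21.7 and 21.3 (19.6 ± 3.35). Il34 was higher in every IL-10-Fc and every BF10 library than in every Ctrl-IgG library. Of all tested genes, 37.3% and 38.4% did not overlap in these pairs of groups. It was also higher in every BF10 than in every aCSF1R library, where 55.7% of all tested genes did not overlap. The F test passed for Il34 (adjusted p 0.0332), as for 34.1% of tested genes. Per length, Csf1 exceeded Il34 2.95- to 4.54-fold in every Ctrl-IgG or aCSF1R library, and 2.96- to 3.64-fold in IL-10-Fc replicate 3 and BF10 replicates 2 and 3. In replicates 1 and 2 of IL-10-Fc and replicate 1 of BF10, all high-sum, the ratio was 1.00, 0.901 and 1.54.

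The receptor subunits of GM-CSF followed the pattern of Csf1r more than that of the ligands. Csf2ra was 11.0, 5.54 and 19.7 FPKM in Ctrl-IgG (12.1 ± 7.16) and 7.81, 12.55 and 8.33 in aCSF1R (9.56 ± 2.60). It was 11.1, 6.40 and 32.1 FPKM with IL-10-Fc (16.5 ± 13.7) and 9.04, 38.8 and 37.4 under BF10 (28.4 ± 16.8), and all pairs of groups overlapped (F test, adjusted p 0.379). The shared subunit gene Csf2rb was 3.66, 2.18 and 8.33 FPKM in Ctrl-IgG (4.72 ± 3.21) and 4.42, 6.07 and 5.37 in aCSF1R (5.29 ± 0.828). With IL-10-Fc it was 7.74, 5.65 and 16.5 FPKM (9.96 ± 5.76), and under BF10 6.21, 23.6 and 23.9 (17.9 ± 10.1). Csf2rb was higher in every BF10 library than in every aCSF1R library, where 55.7% of all tested genes did not overlap. It overlapped between the other pairs of groups, with an F test adjusted p of 0.107. Per length, Csf2ra exceeded Csf2rb 1.13- to 2.99-fold in all 12 libraries. The near copy Csf2rb2 was lower still, at 1.04 to 4.84 FPKM in Ctrl-IgG and 2.86 to 4.25 in aCSF1R, and with interleukin-10 at 2.53 to 7.05 for IL-10-Fc and 2.11 to 12.2 for BF10.

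Csf2 itself was scarce outside the interleukin-10 groups. It was 0.46, 0.97 and 0.49 FPKM in Ctrl-IgG (0.640 ± 0.286), and in aCSF1R 0.39, 0.15 and listed at 0. With IL-10-Fc it was 5.86, 5.18 and 1.38 FPKM, and under BF10 6.36, 0.97 and 0.96. Only 4 libraries reached 1 FPKM, all of them in IL-10-Fc or BF10, so Csf2 entered the tests through those groups and its calls against the others are partly fixed by that entry. The high libraries for Csf2 were the high-sum ones of IL-10-Fc and BF10, where Csf1r, Csf1, Il34, Csf2ra and Csf2rb were each at the low end of the 6 interleukin-10 libraries. Csf3, the gene of the granulocyte factor G-CSF, was 0.16 to 1.41 FPKM without interleukin-10. It reached 68.4, 173.1 and 72.3 FPKM in the IL-10-Fc tumours and 110.3, 18.8 and 31.1 in the BF10 tumours.

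**Figure D1:**
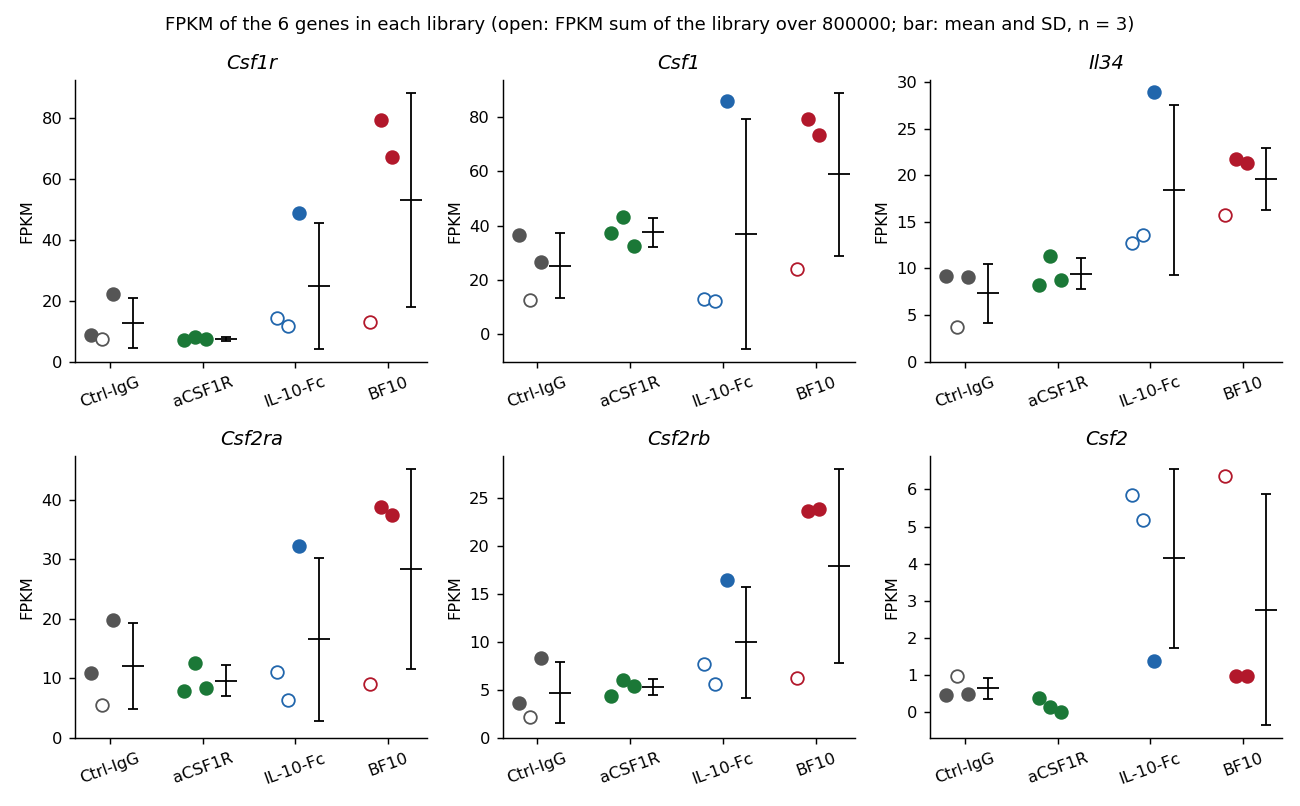
FPKM of Csf1r, Csf1, Il34, Csf2ra, Csf2rb and Csf2 in each of 12 libraries by treatment group, with the mean and SD of 3 libraries as bars (no bar where a library is listed at 0) and open points for the 4 high-sum libraries. Among the IL-10-Fc and BF10 libraries the 3 open points lie below the 3 filled points in every gene but Csf2, where they lie above at 5.18 to 6.36 against 0.96 to 1.38 FPKM.

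Blocking the receptor was compared with control IgG first, since both groups lie on the same side of the Xist and H2-Ea difference. None of the 6 genes was called, where a call needed a limma adjusted p under 0.05 and a fold of at least 1.5, and 0% of the 15813 tested genes were called. At an unadjusted p under 0.05 there were 437 genes and 0 of the 6. Csf1r had a log2 fold change of -0.53 (SE 0.69, 95% interval -2.06 to 1.00, limma adjusted p 0.958). The interval spans both falls and rises, so a change of Csf1r within it was not detectable with 3 libraries a group. Csf1 changed by 0.66 (-0.89 to 2.22), Il34 by 0.40 (-0.42 to 1.22), Csf2ra by -0.18 (-1.63 to 1.27) and Csf2rb by 0.27 (-0.94 to 1.49). The groups were separated, with every library of one above every library of the other, for Csf2 only (-0.47, interval -1.62 to 0.67), where 14.9% of all tested genes were separated. With median-of-ratios size factors the aCSF1R libraries held Csf1r at 5.76 to 6.51, below the 7.28 to 18.3 of Ctrl-IgG, but the gene was not called on that scale either, nor under any of its 23 alternatives. The log2 change of Csf1r was -0.07 without the highest control library, Ctrl-IgG replicate 3, which is also 1 of the 3 libraries high in keratinocyte and muscle markers, and -0.81 without Ctrl-IgG replicate 2.

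BF10 against IL-10-Fc, the other comparison within a side, asks what the CSF1R antibody adds to the cytokine. It also called 0 of the 6 genes, where 0.0126% of tested genes were called, and at an unadjusted p under 0.05 there were 828 genes and 0 of the 6. Csf1r had a log2 fold change of 1.00 (interval -0.52 to 2.53, limma adjusted p 0.478) and Csf1 one of 1.08. For Il34 it was 0.16, for Csf2ra 0.79, for Csf2rb 0.71 and for Csf2 -0.61. All 6 genes overlapped between these groups, where 5.18% of tested genes did not. Averaged over both antibody comparisons (aCSF1R minus Ctrl-IgG and BF10 minus IL-10-Fc), Csf1r changed by 0.24 (SE 0.49, interval -0.84 to 1.32), and 0 of the 6 genes and 0.00632% of tested genes were called. The departure of BF10 from additivity of its parts was 1.53 on the log2 scale for Csf1r (SE 0.98, interval -0.63 to 3.70, limma adjusted p 1), also with 0 of the 6 genes called against 0.00632% of tested genes. These intervals are wide, and the sign of the averaged value for Csf1r turned in 4 of its alternatives. High-sum libraries are replicates 1 and 2 in IL-10-Fc, replicate 1 in BF10 and replicate 2 in Ctrl-IgG. The groups therefore differ in this mix as well as in treatment, and its part in these values was not tested. With the FPKM sum as a covariate in the fit, Csf1r was -0.021 in BF10 against IL-10-Fc.

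Across the sides, IL-10-Fc against Ctrl-IgG called Il34 and Csf2 higher, 2 of the 6 genes, beside 33.7% of tested genes, 10.1% higher and 23.6% lower. Il34 had a log2 fold change of 1.22 (SE 0.37, interval 0.40 to 2.04, limma adjusted p 0.0275) and Csf2 one of 1.52 (SE 0.52, interval 0.37 to 2.67, limma adjusted p 0.0439). Both had separated groups, as did 37.3% of all tested genes. Csf2 entered the tests through the IL-10-Fc and BF10 libraries, so its call and its separation are partly fixed by that entry. Without Ctrl-IgG replicate 2 Il34 changed by 0.85 (adjusted p 0.0754) and without IL-10-Fc replicate 3 by 0.86 (0.0545), which ended its call, while 17 of 23 alternatives held it, with adjusted p from 0.000101 to 0.143. The call of Csf2 was lost in 11 of 21 alternatives, with adjusted p from 0.00167 to 0.152. It was lost without any 1 of the 3 Ctrl-IgG or 3 aCSF1R libraries, IL-10-Fc replicate 1 or IL-10-Fc replicate 2, with log2 fold changes from 1.24 to 1.66. Csf1r (0.79, interval -0.74 to 2.32, adjusted p 0.393), Csf1 (0.05), Csf2ra (0.29) and Csf2rb (0.96, adjusted p 0.198) were not called. All tested genes had a median log2 change of -0.39 here and 0.01 with size factors.

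BF10 against Ctrl-IgG called Il34 and Csf2rb higher, again 2 of the 6, beside 24.9% of tested genes, 11.8% higher and 13.2% lower. Il34 changed by 1.38 (SE 0.37, interval 0.56 to 2.20, limma adjusted p 0.0194), with separated groups, as in 38.4% of all tested genes. Its call was lost without Ctrl-IgG replicate 2 (1.01, adjusted p 0.0629), BF10 replicate 2 (1.302, 0.0705) or BF10 replicate 3 (1.32, 0.0601) and held in 19 of 23 alternatives, with adjusted p from 0.00016 to 0.0710. Csf2rb changed by 1.67 (SE 0.55, interval 0.45 to 2.88, limma adjusted p 0.0471) with overlapping groups, and 12 of 23 alternatives held this call, with adjusted p from 4.35e-05 to 0.168. It was lost without Ctrl-IgG replicate 1 or 2, any 1 of the 3 aCSF1R libraries, IL-10-Fc replicate 1, or BF10 replicate 2 or 3, with log2 fold changes from 1.32 to 1.67. Csf1r changed by 1.79 (interval 0.27 to 3.32, adjusted p 0.0841) and was not called. It was called without IL-10-Fc replicate 3 (1.79, adjusted p 0.0462) or BF10 replicate 1 (2.59, 0.0102). Csf1 (1.13), Csf2ra (1.08) and Csf2 (0.91) were not called.

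BF10 against aCSF1R called Csf1r alone of the 6, with a 5.01-fold higher level in BF10 on the scale of FPKM + 1 (log2 2.33, SE 0.69, interval 0.80 to 3.85, limma adjusted p 0.0311). In this comparison 25.0% of tested genes were called, 11.0% higher and 14.0% lower. The call was lost without aCSF1R replicate 1, 2 or 3 (2.28, 2.38 and 2.32), BF10 replicate 2 (1.87) or BF10 replicate 3 (1.99), and held in 16 of 23 alternatives, with adjusted p from 2.87e-06 to 0.118. Without BF10 replicate 1 the log2 change was 3.12. Il34 (0.98, adjusted p 0.0787), Csf2rb (1.39, 0.0889) and Csf2 (1.38, 0.0762) had separated groups but were not called, and Csf2ra (1.26) and Csf1 (0.47) overlapped. With Csf1r that makes 4 of 6 genes separated, beside 55.7% of all tested genes. Among them is Csf2, whose separation is partly fixed by its entry into the tests through the IL-10-Fc and BF10 libraries. The summed level of the 17 macrophage markers, none of them at 0, was 509.2 to 583.7 FPKM in aCSF1R and 2485 to 3176 in BF10, and 12 of them were called higher in BF10. Csf1r minus the mean of these markers was 0.76 higher in BF10 on the log2 scale (exact permutation p = 0.4).

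**Figure D2:**
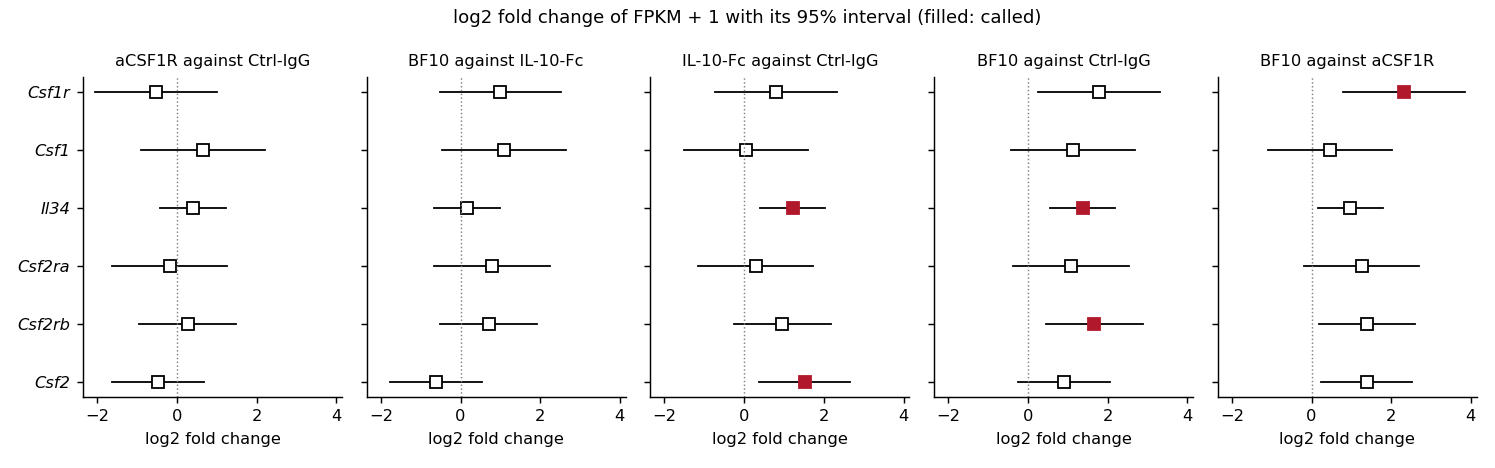
Log2 fold change of FPKM + 1 for the 6 genes in 5 comparisons, as squares with 95% intervals from limma, filled where the gene was called. In aCSF1R against Ctrl-IgG and BF10 against IL-10-Fc every interval crosses 0, and the 5 calls stand in comparisons that cross the Xist and H2-Ea difference, with Csf1r called at 2.33 in BF10 against aCSF1R.

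Most of the spread in IL-10-Fc and BF10 ran between the high-sum libraries and the rest. In these groups the high-sum libraries have 2, 2 and 4 as the first number of the sample title and the others 6, 6 and 7, so FPKM sum and this number, which the labels do not explain, cannot be told apart here. Within these 2 groups the mean of the 3 libraries with ordinary sums exceeded that of the 3 high-sum libraries 5.00-fold for Csf1r, 4.84-fold for Csf1, 4.09-fold for Csf2ra, 3.27-fold for Csf2rb and 1.71-fold for Il34. Csf2 went the other way, with 5.26-fold more in the high-sum libraries. After size factors the ratios were 3.12 for Csf1r, 3.16 for Csf1, 2.59 for Csf2ra, 2.03 for Csf2rb and 1.08 for Il34. Csf2 stayed lower in the libraries with ordinary sums at 0.121 of the level in the others.

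Genes with long exons as a class were lower in the same libraries. The median log2 deviation of genes over 5000 exon bases minus that of genes under 1000 was -0.23 in Ctrl-IgG replicate 2, -0.47 and -0.44 in replicates 1 and 2 of IL-10-Fc and -0.34 in replicate 1 of BF10. In the other 8 libraries it was 0.20 to 0.40. Csf1r, Csf1 and Csf2rb have over 5000 exon bases and Csf2 has 800. When each library was centred on genes of like exon length, chosen after seeing the data, Csf1r was at log2 values of 3.03, 3.25 and 4.30 in Ctrl-IgG and 2.74, 2.87 and 2.88 in aCSF1R. It was at 4.47, 4.36 and 5.55 for IL-10-Fc and 4.17, 6.16 and 5.88 for BF10, so the aCSF1R libraries were the lowest and the 3 high-sum interleukin-10 libraries remained below the other 3. On that scale 3 of the 6 genes were called in IL-10-Fc against Ctrl-IgG (33.6% of tested genes), 3 in BF10 against Ctrl-IgG (28.9%) and 5 in BF10 against aCSF1R (28.5%). Leaving out the 4 high-sum libraries was also an alternative chosen after seeing the data, and 5 of the genes were tested. It kept IL-10-Fc replicate 3 as the only library of its group. Log2 fold changes are therefore given for that fit further below, and no count of calls. The part of exon length or FPKM sum in the levels of single genes was not tested.

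**Figure D3:**
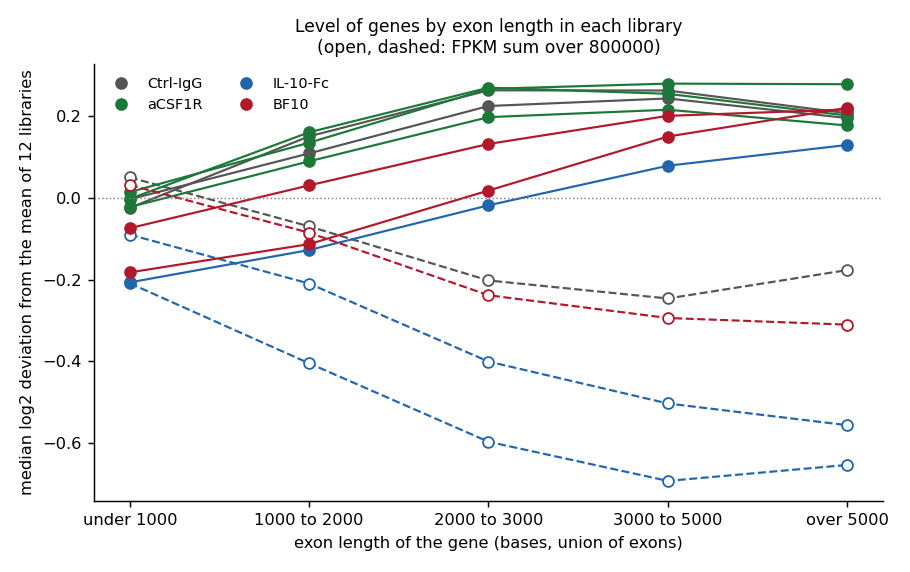
Median log2 deviation of tested genes from their mean over 12 libraries (y axis) by exon length of the gene (x axis, 5 classes in bases), 1 line per library, with dashed lines and open points for the 4 high-sum libraries. The 4 dashed lines end lower for long genes than for short genes and the other 8 end higher, with differences between the ends of -0.47 to -0.23 and 0.20 to 0.40.

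Csf1r was set against other macrophage transcripts to see whether it moved apart from them. On the log2 scale Csf1r minus the mean of the 17 macrophage markers was -1.99 to -1.68 in the 4 high-sum libraries and -1.28 to 0.59 in the other 8. Its mean was -1.33 for Ctrl-IgG, -1.05 for aCSF1R, -1.02 for IL-10-Fc and -0.29 for BF10. The groups did not differ by a two-sided exact permutation test of the F statistic (0.716, p = 0.569, 369600 assignments), and the pairs of groups gave exact permutation p from 0.3 to 0.8, where 3 against 3 cannot go below 0.1. The summed macrophage markers were lowest in aCSF1R, at 509.2 to 583.7 FPKM, against 762.7 to 1440 for Ctrl-IgG, 1732 to 4352 for IL-10-Fc and 2485 to 3176 for BF10. A sum weighs abundant genes most. By the mean log2 of the markers, Ctrl-IgG replicate 3 (5.264) and IL-10-Fc replicate 3 (5.263) overlapped. The median log2 change of the markers in aCSF1R against Ctrl-IgG was -0.83, where that of all tested genes was 0.11, with 0 of 17 called.

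**Figure D4:**
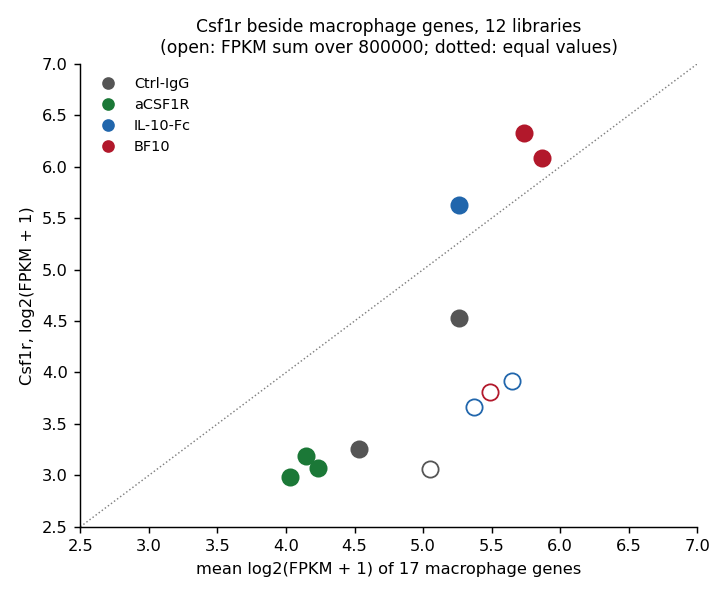
Csf1r (y axis, log2(FPKM + 1)) against the mean log2(FPKM + 1) of 17 macrophage genes (x axis) in 12 libraries, with a dotted line of equal values and open points for the 4 high-sum libraries. The open points lie 1.68 to 1.99 below the line, the aCSF1R libraries sit at the lower left, and BF10 replicates 2 and 3 and IL-10-Fc replicate 3 lie above the line.

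Relations of the genes with markers of their likely sources were computed within each side over 6 libraries, 10 relations in all, and none passed the Benjamini-Hochberg adjustment (lowest adjusted p 0.255). Csf1r with the macrophage markers had r 0.70 and rho 0.60 (exact permutation p = 0.0736 and 0.242) in Ctrl-IgG and aCSF1R, and r 0.79 without the 2 farthest libraries. In IL-10-Fc and BF10 it had r 0.44 and rho 0.60 (exact permutation p = 0.354 and 0.242), and r 0.76 without the 2 farthest, but r was -0.64 with size factors. Csf2rb with the neutrophil markers had the lowest raw p, in Ctrl-IgG and aCSF1R (r 0.82, rho 0.77, exact permutation p = 0.0319 and 0.103), and r was 0.48 without the 2 farthest libraries. In IL-10-Fc and BF10 the same relation had the opposite sign of r (-0.23, rho 0.20, exact permutation p = 0.867 and 0.714), and r was 0.94 without the 2 farthest libraries. The 6 libraries of each side include high-sum libraries and 2 treatments, so the relations share those differences.

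Within the groups the 6 genes varied in blocks. As deviations from the group means over 12 libraries, Csf1r ran with Csf2rb (Pearson r 0.976) and Csf2ra (0.959), and these subunits with each other (0.978). Csf1 ran with Il34 (0.900) and Csf2ra (0.888) and less closely with Csf1r (0.834), and Il34 with Csf1r at 0.720. Csf2 ran against all 5 others, with r from -0.917 to -0.711. These values are descriptions, since all genes share the libraries and the high-sum difference.

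Outside the 6, the genes nearest to Csf1r by the same measure were Ncf1 (r 0.990), a subunit of the phagocyte NADPH oxidase, Rassf5 (0.987), Itgb2 (0.982), the beta chain of the leukocyte integrins, Pld4 (0.982) and Fes (0.977), a tyrosine kinase of myeloid cells. Nearest to Csf2rb were Pld4 (0.992) and Syk (0.985), and nearest to Csf2ra were Cyth4 (0.990) and Pld4 (0.989). Csf1 ran with Trappc12 (0.997), Ago2 (0.996), Chfr, Nsd3 and Ubxn4, and Il34 with Agfg2 (0.980), Klhl26, S1pr2, Car9 and Rgs12. Csf2 ran with Cxcl11 (0.977), an interferon-induced chemokine, Fam173a, Mthfd2l, Tmem165 and Rpp21.

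Transcription factors known to act on the Csf1r gene were followed next. Of 8, 1 rose in IL-10-Fc against Ctrl-IgG and in BF10 against Ctrl-IgG, where 10.1% and 11.8% of all tested genes rose. It was Runx1 (log2 1.60 and 2.11), a haematopoietic factor. In BF10 against aCSF1R, where 11.0% of all tested genes rose, 4 of 8 did: Spi1, which encodes PU.1 (1.70), Cebpa (1.58), Runx1 (1.58) and Maf (0.96). Their median there was 1.19, where that of all tested genes was -0.21. Of 16 genes for signalling partners of CSF1R, 0 were called in either comparison with Ctrl-IgG, and 4 rose in BF10 against aCSF1R. Among them were Tyrobp (1.70), the adaptor DAP12, the kinase gene Lyn (1.46) and the phosphatase gene Ptpn6 (2.13), and the median over the 16 was 0.84. In aCSF1R against Ctrl-IgG and BF10 against IL-10-Fc 0 genes of any list were called.

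Downstream of the GM-CSF receptor, 3 of 7 genes rose in each of IL-10-Fc against Ctrl-IgG, BF10 against Ctrl-IgG and BF10 against aCSF1R, where 10.1%, 11.8% and 11.0% of all tested genes rose. Jak2, the kinase bound to the beta subunit, changed by 2.72, 2.40 and 2.45. The STAT5 targets Cish (0.98, 1.09 and 1.04) and Socs2 (1.39, 1.45 and 1.03) rose less. The medians of the 7 were -0.32, 0.14 and -0.21, near those of all tested genes. Of the beta common family 2 of 6 genes were tested, and Il3ra, the interleukin-3 alpha subunit, rose in BF10 against Ctrl-IgG (1.32) and against aCSF1R (1.18). Csf3, which entered the tests mainly through the IL-10-Fc and BF10 libraries, rose by 5.98, 4.76 and 4.57 in the 3 comparisons. Its receptor gene Csf3r was not called.

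Among the other receptor tyrosine kinases of the CSF1R family and their ligands 9 of 10 genes were tested, and the ligand genes Pdgfa, Pdgfb and Pdgfc rose in each of the 3 comparisons across the sides, 3 of 9 beside 10.1%, 11.8% and 11.0% of all tested genes. Pdgfc changed by 2.76 in IL-10-Fc and 2.65 in BF10 against Ctrl-IgG and by 2.93 in BF10 against aCSF1R. Pdgfb changed by 2.36, 2.68 and 2.29, and the receptor genes Kit, Pdgfra and Pdgfrb were not called. Of the other binding partners of IL-34, Sdc1 (syndecan-1) was tested and rose in BF10 against Ctrl-IgG (1.33).

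Markers of cells that could carry these genes moved with the same comparisons, given here in the order IL-10-Fc against Ctrl-IgG, BF10 against Ctrl-IgG and BF10 against aCSF1R. The share of all tested genes that rose was 10.1%, 11.8% and 11.0%, and the share that fell was 23.6%, 13.2% and 14.0%. Of 17 macrophage markers 4, 6 and 12 rose (median log2 change 0.57, 0.67 and 1.61, over all tested genes -0.39, -0.12 and -0.21), among them C1qa (1.06, 1.13 and 2.49), a complement subunit, and Lyz2 (2.89, 2.59 and 3.31), lysozyme. All 5 tested osteoclast markers rose in each, with Ctsk at 4.58, 5.01 and 4.31 and Acp5 at 2.45, 3.37 and 4.43. Ocstamp and Dcstamp were at most 0.56 and 0.12 FPKM in Ctrl-IgG and aCSF1R. They entered the tests through IL-10-Fc and BF10, so their calls are partly fixed by that entry. The same holds for Ngp (at most 0.09 FPKM in Ctrl-IgG and aCSF1R) and Ltf (at most 0.9) among the neutrophil markers below. Among the monocyte markers below, Cx3cr1 (at most 0.67 FPKM in Ctrl-IgG and aCSF1R) also entered the tests through IL-10-Fc and BF10. The sum of the osteoclast markers was 13.7 to 49.6 FPKM for Ctrl-IgG, 21.6 to 23.7 for aCSF1R, 210.9 to 613.5 for IL-10-Fc and 242.4 to 893.1 for BF10. Osteoclasts need CSF1R, though these genes are also made by macrophages and fibroblasts. Of 9 tested neutrophil markers 7, 6 and 4 rose (median 3.28, 2.97 and 1.79), with sums of 31.8 to 309.8 FPKM for Ctrl-IgG, 181.0 to 339.9 for aCSF1R, 1051 to 4597 for IL-10-Fc and 555.1 to 1678 for BF10. Of 9 fibroblast markers 5, 5 and 2 rose (median 1.56, 1.45 and 1.08), with sums of 199.1 to 665.7, 546.0 to 655.6, 1081 to 2494 and 1681 to 2034 FPKM in the same order of groups. Of 7 monocyte markers 1, 1 and 2 rose and 2, 2 and 0 fell, with Ly6c2 and Chil3 falling in IL-10-Fc and BF10 against Ctrl-IgG. Their part in the levels of the 6 genes was not tested.

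The remaining lists were counted in the same order. Of all tested genes 10.1%, 11.8% and 11.0% rose and 23.6%, 13.2% and 14.0% fell. Of 11 T and NK cell markers 0, 3 and 4 rose and 2, 1 and 1 fell, of 6 simple epithelial markers 5, 6 and 5 rose, and of 6 mast cell and eosinophil markers 2, 0 and 0 rose. Among the simple epithelial markers Krt8 and Krt18 were below 1 FPKM in every Ctrl-IgG and aCSF1R library, so their calls are partly fixed by entry. Epcam and Cd207 together summed to 0.38, 0.21 and 3.33 FPKM in Ctrl-IgG and 0.99, 1.21 and 0.4 in aCSF1R. Epcam thus also needed IL-10-Fc or BF10 libraries to enter the tests, and its calls are partly fixed too. Of 8 endothelial markers 1, 0 and 0 rose and of 5 dendritic cell markers 0, 1 and 0. Of the Langerhans cell list only Epcam was tested, which is also 1 of the simple epithelial markers and is counted there, while Cd207, the defining gene, was at most 0.34 FPKM in all 12 libraries. Of 11 keratinocyte markers 1, 0 and 1 fell and of 9 skeletal muscle markers 1, 0 and 4. The 4 tested sex and strain genes were all called in each, 2 higher and 2 lower, and entered the tests mainly through the groups where they were high.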

How the data were processed

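RNA of 12 tumours was measured in 4 treatment groups of 3 libraries, grouped by the treatment in the labels. Per the labels, stranded mRNA libraries were sequenced on an Illumina instrument. The authors deposited 1 table of FPKM values for 55401 genes, given to 2 decimals, with no further scaling across libraries. The submitters' processing notes name STAR 2.7.5a, RSEM 1.3.3 and DESeq2 1.30.0, without a role for each, and the builds mm10 and GRCm38. The deposited DESeq2 tables of 4 comparisons hold log2 fold changes, standard errors, Wald scores, p-values and adjusted p-values, and were not used here. The table held 0 columns of other samples, and 0 pairs of libraries were identical.

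The 15813 genes that reached 1 FPKM in 3 or more libraries were transformed to log2(FPKM + 1), on which a fold change understates that of low genes. limma 3.58.1 in R 4.3.3 fitted the 12 libraries in 1 model with an intensity trend and no covariate. Benjamini-Hochberg adjustment ran over all 15813 genes, and a call needed both an adjusted p under 0.05 and a change of 1.5-fold or more. Ratios to list means were compared by exact permutation of the libraries. The script was tested on simulated data with independent errors and no shift common to a library, so that test does not cover the high-sum difference. FPKM values carry no counts, so the error of a single value is unknown, and steps between low values gave a relative depth of 0.938 to 1.41.

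GENCODE M21 (GRCm38) gave exon lengths and positions for 99.5% of the identifiers, and RefSeq gave the promoters. The text names the 6 genes, Csf2rb2, genes of the marker and pathway lists and, for each of the 6, the 5 tested genes with the highest Pearson r of deviations from the group means among those averaging 5 FPKM or more, leaving out predicted genes, pseudogenes and receptor segments. The 6 genes and the lists were chosen with earlier results of these data known. The alternatives were another pseudocount, other filters, TPM, size factors and fits of the groups compared alone. Further alternatives were a title term, the FPKM sum as a covariate, array weights and leaving out each library. The title term set libraries with a first title number of 5 or more apart from the rest. Centring by exon length and leaving out the 4 libraries with an FPKM sum over 800000 were added after the data were seen. The latter kept IL-10-Fc replicate 3 as the only library of its group. The values of 1 gene of the lists are not reported here.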

Additional observations from a re-analysis of the deposited data

How the results depend on the processing

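Over all results, called or not, the direction and the side of the threshold held in most alternatives. The calls held less well. In IL-10-Fc against Ctrl-IgG the call of Csf2 was lost in 11 of 21 alternatives and that of Il34 in 6 of 23. In BF10 against Ctrl-IgG Csf2rb lost its call in 11 of 23 and Il34 in 4. Csf1r in BF10 against aCSF1R lost its call in 7 of 23. The exceptions are grouped here by setting, and where no value below shows it, the cause was not tested. With all genes above 0 tested, Csf1r in BF10 against aCSF1R was 2.33 but not called (limma adjusted p 0.0624), and after rescaling to TPM it was 2.30 (0.0787). Csf1r in BF10 against Ctrl-IgG became called with size factors (1.83), the title term (1.33) and the FPKM sum as a covariate (1.66). It also became called with array weights (2.65) and centring by exon length (1.88). In IL-10-Fc against Ctrl-IgG it became called with the covariate (1.69). Without the 4 high-sum libraries, where IL-10-Fc replicate 3 alone remained in its group, Csf1r changed by 2.31 and 1.74 in these comparisons. In BF10 against IL-10-Fc it was -0.021 with the covariate and 2.27 with array weights. The antibody part averaged over both backgrounds turned for Csf1r to -0.036 with size factors, -0.50 with the covariate, -0.12 without the high-sum libraries and -0.043 after centring, and was 0.91 with array weights. With array weights the departure of Csf1r from additivity in BF10 was 2.72. These weights stopped before convergence, at 0.000189 for IL-10-Fc replicate 1 to 17.6 for aCSF1R replicate 1.

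The share of all tested genes called in the same fit is given in brackets. Of the 6 genes, IL-10-Fc against Ctrl-IgG called 1 with a pseudocount of 0.1 (34.6%) or at least 1 FPKM in 6 libraries (35%). It also called 1 with TPM (28.8%) or with array weights (60.3%). It called 0 with every gene above 0 tested (12.5%) or in a fit of this pair (17.3%). After centring it called 3 (33.6%) and with the covariate 6 (45.2%). BF10 against aCSF1R called 2 with the pseudocount (23.9%) or in the fit of the pair (31.8%), and 0 with every gene above 0 tested (9.69%). It called 3 with size factors (26.1%) or the title term (34.9%), 5 after centring (28.5%) and 6 with the covariate (42.6%) or array weights (45.3%). BF10 against Ctrl-IgG called 1 with every gene above 0 tested (9.6%) or in a fit of the pair (17.7%), and 0 with TPM (20.6%). After centring it called 3 (28.9%), with the title term 4 (29.9%), with array weights 5 (44.9%) and with the covariate 6 (43.6%). Array weights also called 5 in BF10 against IL-10-Fc (54.7%), in the averaged antibody part (35.9%) and in the departure (48.6%).

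With the covariate, BF10 against IL-10-Fc turned for Csf1 (-0.043), Il34 (-0.33), Csf2ra (-0.21), Csf2rb (-0.064) and Csf2 (0.14), the averaged antibody part for Il34 (-0.066), Csf2ra (-0.41) and Csf2rb (-0.061), the departure for Csf1 (-0.22), Csf2rb (-0.0064) and Csf2 (0.29), and aCSF1R against Ctrl-IgG for Csf2rb (-0.058). Without the high-sum libraries, BF10 against IL-10-Fc turned for Csf1 (-0.17) and Il34 (-0.41), the averaged part for Il34 (-0.19) and Csf2ra (-0.18), the departure for Csf1 (-0.42), and aCSF1R against Ctrl-IgG for Csf2rb (-0.077). Il34 in BF10 against IL-10-Fc was also -0.26 with size factors and -0.10 after centring. The departure of Csf2 was 0.73 with a pseudocount of 0.1, 0.084 with TPM and 0.19 with the title term. Csf1 in IL-10-Fc against Ctrl-IgG was -0.15 with TPM and -1.10 with array weights, which also turned Csf2ra there (-0.60), Il34 in aCSF1R against Ctrl-IgG (-0.015) and its departure (0.52). With size factors the relations within IL-10-Fc and BF10 turned to r -0.64 for Csf1r with macrophage, -0.71 for Csf1 with fibroblast, -0.30 for Il34 with keratinocyte and 0.051 for Csf2 with T and NK cell markers.

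Leaving out 1 library at a time, the calls among the 6 genes ranged from 0 to 2 in IL-10-Fc against Ctrl-IgG. They ranged from 0 to 3 in BF10 against Ctrl-IgG and against aCSF1R. The shares of all tested genes called in these comparisons were 22.5% to 51.5%, 16.6% to 31% and 16.5% to 32%. Csf1r ranged from 1.87 to 3.12 in BF10 against aCSF1R and from 1.34 to 2.59 in BF10 against Ctrl-IgG. The sign turned within the ranges of aCSF1R against Ctrl-IgG for Csf2rb (-0.077 to 0.70) and Csf2ra (-0.60 to 0.23), of IL-10-Fc against Ctrl-IgG for Csf2ra (-0.31 to 0.77) and Csf1 (-0.84 to 0.51), of BF10 against IL-10-Fc for Il34 (-0.038 to 0.52), and of the departure for Il34 (-0.44 to 0.13), Csf1 (-0.043 to 1.31) and Csf2 (-0.77 to 0.18). No paired analysis was possible because replicates are numbered by sample order and the groups compared share at most 1 first title number. With 3 libraries a group and no counts, changes inside the intervals given above could not be resolved.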
